A study of Mus musculus with 4 samples.

Results

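The genes described here drive the cell division cycle and copy DNA: helicase and origin genes, the A, B, D and E cyclins, the cyclin-dependent kinases and other kinases and phosphatases of mitosis, and the markers Pcna, Top2a and Mki67. They were chosen by gene symbol, as the starts Mcm, Orc, Cdc, Cdk, Aurk, Plk and Bub1 followed by the usual numbers, the 4 cyclin families and the 3 markers, without Cdc42 and the Cdkn inhibitors. The choice used no measured value. It gave 89 probe sets of 78 genes, of 19937 genes measured. Of these, 8 genes were put in no cell cycle role and share only the symbol start, such as Cdc37, Cdc40 and Cdc73. A further 14, such as Cdk8 and Cdk13, were kept apart from the 5 cell cycle kinases as other cyclin-dependent kinases. All 78 are called cell cycle genes below as a label of the choice by symbol.

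Adult C57BL/6 mice gave the intestinal epithelium, in which ultraviolet light had linked proteins to their RNA. The groups were an Msi1 immunoprecipitate (Millipore AB5977), an hnRNP immunoprecipitate, an IgG control immunoprecipitate and the input, the RNA before any antibody. Each group had 1 Affymetrix Mouse Gene 1.0 ST array, which carried RNA combined from 2 experiments, with 100 ng labelled. No group was replicated, so each difference is given by its size with no test, and no spread between experiments can be given. The labels do not name the hnRNP that the antibody recognised.

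Cells divide in a fixed order. In G1 the origin recognition complex and Cdc6 load the Mcm2 to Mcm7 helicase onto DNA, and D cyclins with Cdk4 and Cdk6 release E2F transcription factors from the Rb protein. In S phase E and A cyclins with Cdk2 start replication, Pcna clamps the polymerases to DNA, and in mitosis B cyclins with Cdk1, Plk1 and the Aurora kinases build the spindle until the anaphase-promoting complex lets the chromosomes part. In the gut these genes are known to be active in the crypts, where stem and transit-amplifying cells divide. Musashi1, the product of Msi1, is an RNA-binding protein known from stem and progenitor cells.

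Many genes of this group are known to be transcribed by E2F, so the promoter sequences of helicase and phosphatase genes are shown for the part of the promoter that carries an E2F-type motif. RefSeq promoter windows (GRCm38.p6, 250 bases before to 50 after the start) were found for 66 of the 78 genes. The letters TTTCCCGC or TTTGGCGC were searched on both strands, and a gene was counted if any of its windows held them. They were found in 9 of the 66 genes (13.6%), against 486 of 27025 genes with a window (1.80%). The 9 genes were Mcm3, Mcm5, Mcm6, Mcm7, Mcm8, Cdc6, Cdc25a, Cdk2 and Orc3, so 4 of the 6 helicase subunit genes were among them. The input signal had a median of 6.95 log2 units over the 9 genes and 6.58 over the other 57. Each line gives 60 bases of the gene's strand, 5′ to 3′, with the motif in capitals. The motif lies upstream of a RefSeq start of the gene, which for Mcm5, Mcm7 and Cdc25a is a start inside the gene's full extent. A match describes the letters and is no evidence of binding.
Mcm5, chr8:75109334-75109393, plus strand: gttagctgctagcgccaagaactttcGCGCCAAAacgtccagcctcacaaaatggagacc
Mcm6, chr1:128359719-128359778, minus strand: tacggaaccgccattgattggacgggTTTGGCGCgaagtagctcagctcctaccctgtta
Mcm6, chr1:128359782-128359841, minus strand: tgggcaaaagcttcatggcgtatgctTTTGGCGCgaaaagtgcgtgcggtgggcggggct
Mcm7, chr5:138172015-138172074, minus strand: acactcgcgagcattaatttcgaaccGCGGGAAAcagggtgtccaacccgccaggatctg
Cdc25a, chr9:109875486-109875545, plus strand: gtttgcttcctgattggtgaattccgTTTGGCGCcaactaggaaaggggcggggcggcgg

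CCAAT boxes, the letters CCAAT on either strand, stood in 57.6% of the 66 genes and in 41.1% of all genes with a window. The cell cycle homology region, searched as TTTGAA or TTCGAA on both strands, stood in 27.3% and 21.7%. This element is known from promoters of mitotic genes, and Ccnb2, Cdk1, Plk1, Bub1 and Mki67 were among the 18 genes that held it. Sites of different motifs were counted separately, whether or not they overlapped.

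The deposited values were taken as log2 signals, and the base was inferred from their range. A detection floor was set on each array at the 95th percentile of 1208 probe sets for olfactory and vomeronasal receptors, genes of sensory neurons. It stood at 4.74 for Msi1, 5.17 for hnRNP, 5.26 for IgG and 4.09 for input. Over all genes, 47.8% lay above the floor on the Msi1 array, 32.9% on hnRNP, 28.1% on IgG and 59.1% on input. The standard deviation across all probe sets was 1.38 for Msi1, 1.20 for hnRNP, 1.17 for IgG and 2.01 for input, so the arrays had not been brought to one distribution. Epithelium markers such as Epcam and Krt8 were above the floor on input for 9 of 9 genes (median 9.60), against 8 of 10 immune cell markers (median 4.88) and 4 of 9 stroma and muscle markers (median 4.08). Of the B cell genes, Cd79a and Ms4a1 were below the input floor and Cd79b (4.61) was above it.

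Most cell cycle and replication genes gave signal above the floor in the starting RNA. Of the 78 genes, 73 (93.6%) were above the floor on the input array, with a median signal of 6.60, against a median of 4.56 over all genes. On the Msi1 array 52 were above the floor (66.7%), on hnRNP 34 (43.6%) and on IgG 26 (33.3%). The highest input signals, which do not rank RNA amounts across probe sets, were those of Ccnd2 (10.13), Pcna (9.83), Ccnb2 (9.68), Cdk4 (9.51) and Cdk16 (8.94). In bulk RNA, fewer cells of a type and less RNA per cell cannot be told apart. There were 19 genes above the floor on all 4 arrays, 18 above it on input alone, and 3 (Ccna1, Ccnb3 and Cdk15) above it on no array. These patterns were not counted over all genes, and input had the lowest floor, so the counts are description only. Ccna1 and Ccnb3 are known as cyclins of germ cells. Cdk3 and Cdk14 were above a floor on a precipitate but not on input.

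**Figure D1:**
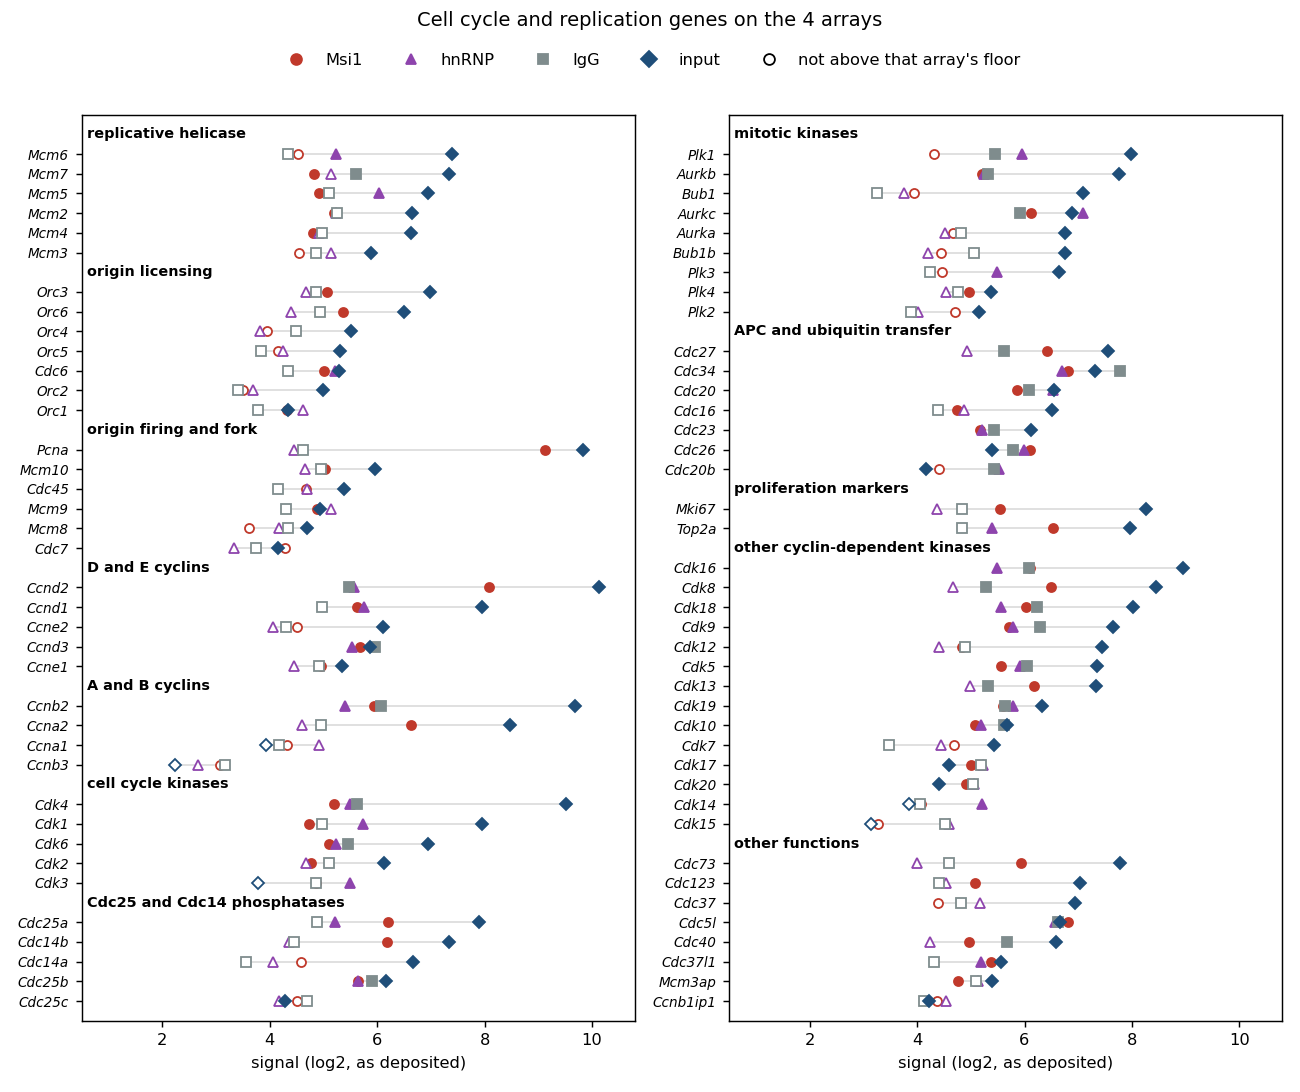
Log2 signal of each of the 78 cell cycle and replication genes (rows, grouped by role and ordered by input signal) on the Msi1, hnRNP, IgG and input arrays, 1 array each, with open symbols where the value was not above that array's floor. The input symbol lies furthest to the right for most genes, and Pcna and Ccnd2 are the rows where Msi1 lies furthest to the right of hnRNP and IgG.

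The Msi1 precipitate was set against IgG because the study ranked transcripts by their enrichment over that control. Pcna, Ccnd2, Cdc14b, Top2a and Ccna2 were the cell cycle genes furthest above IgG. In all, 9 of the 54 genes above the floor on either array (16.7%) were 2-fold or more above IgG in Msi1, against 18.6% of all genes, and 2 (3.70%) were at least 2-fold lower, against 6.91%. The remaining 43 differed by less than 2-fold. The median difference was −0.02 log2 units, against 0.06 over all genes above a floor, and 26 genes lay above 0 and 27 below. The share of cell cycle genes above IgG was near the background. Of the calls, 81.8% were higher. This was 100% with median centring, where no gene was lower, and 69.2% with quantile normalization, with 9 higher and 4 lower. Over all genes, 21.0% were higher and 4.92% lower with median centring, and 22.3% and 15.2% with quantile normalization. Higher calls thus outnumbered lower ones over all genes too.

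Pcna, the sliding clamp of DNA polymerases, read 9.12 in Msi1, 4.46 in hnRNP, 4.63 in IgG and 9.83 in input. It was bright in Msi1 and input and below the floor in hnRNP and IgG, so its excess over IgG of 4.49 is at least 14.5-fold. A second Pcna probe set read 10.81 in Msi1, 1.70 in hnRNP, 3.03 in IgG and 10.61 in input, which put it 7.78 above IgG. Both probe sets were high in Msi1 and input and below the floor in hnRNP and IgG, the first highest in input and the second in Msi1. RefSeq lists the pseudogenes Pcna-ps1 and Pcna-ps2, and which locus each probe set reads was not tested.

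Ccnd2, a D cyclin that drives G1 progression, read 8.09 in Msi1, 5.58 in hnRNP, 5.48 in IgG and 10.13 in input. It was the one gene of the 5 furthest above IgG that was measured above the floor on both arrays, at 6.09-fold (2.61). Its relatives stayed near IgG. Ccnd1 read 5.63 in Msi1, 5.75 in hnRNP, 4.98 in IgG and 7.95 in input, a difference from IgG of 0.65. Ccnd3 read 5.68 in Msi1, 5.52 in hnRNP, 5.95 in IgG and 5.87 in input (−0.27). The S phase cyclin Ccne1 differed by 0.04, and Ccne2 was above the floor on input only.

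Ccna2, the cyclin of S and G2 phase, read 6.63 in Msi1, 4.61 in hnRNP, 4.95 in IgG and 8.48 in input, and was at least 2.58-fold higher than IgG. Ccnb2, a mitotic cyclin, read 5.95 in Msi1, 5.41 in hnRNP, 6.07 in IgG and 9.68 in input. Its Msi1 and IgG values differed by −0.12.

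Of the proliferation markers, Top2a, which untangles DNA before mitosis, read 6.53 in Msi1, 5.39 in hnRNP, 4.84 in IgG and 7.96 in input, at least 2.40-fold above IgG. Its other probe set was below the floor on all 4 arrays and differed from IgG by −0.44. With the mean of both probe sets the Top2a difference was 0.62, which is under 2-fold. Mki67, which coats mitotic chromosomes, read 5.54 in Msi1, 4.38 in hnRNP, 4.83 in IgG and 8.27 in input, a difference from IgG of 0.71.

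The phosphatases that act on Cdks and mitotic substrates included 2 genes above IgG. Cdc14b read 6.18 in Msi1 and 4.45 in IgG, at least 1.88-fold, and Cdc25a, which activates Cdk2, read 6.20 in Msi1 and 4.88 in IgG, at least 1.92-fold. Both pass 2-fold as deposited (1.73 and 1.32) and fall under it once the IgG value is raised to its floor. Cdc25b differed by −0.25, and Cdc14a and Cdc25c were below the floor on both arrays.

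Genes of the licensing and helicase machinery lay near IgG. None of the 6 helicase subunit genes was 2-fold higher or lower. Of the 4 above a floor, Mcm2 differed by −0.06, Mcm4 by −0.16, Mcm5 by −0.20 and Mcm7 by −0.78, while Mcm3 and Mcm6 were below the floor on both arrays. Mcm7 passed 2-fold lower with quantile normalization (−1.02). Of the 7 licensing genes, 3 were above a floor, with differences of 0.68 for Cdc6, 0.43 for Orc6 and 0.20 for Orc3. In the firing and fork group, Mcm9 (0.58) and Mcm10 (0.08), which act in DNA repair and in helicase activation, were the other genes above a floor beside Pcna. Cdc7, the kinase that fires origins, and Cdc45 were below it on both arrays.

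Kinases that drive the cycle did not exceed IgG by 2-fold. Cdk4, the partner of D cyclins, read 5.20 in Msi1, 5.50 in hnRNP, 5.63 in IgG and 9.51 in input, and Cdk1, the mitotic kinase, read 4.74 in Msi1, 5.74 in hnRNP, 4.97 in IgG and 7.94 in input. Their differences from IgG were −0.44 and −0.24. Cdk6 differed by −0.36, Cdk2 by −0.34 and Cdk3 by 0.00. Thus 0 of these 5 kinase genes passed 2-fold in either direction, and this count was the same with median centring, quantile normalization and loess centring.

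Among mitotic kinases, Plk1, which acts at centrosomes and kinetochores, read 4.32 in Msi1, 5.96 in hnRNP, 5.45 in IgG and 7.98 in input. It was below the floor in Msi1 and above it on the other arrays, and was at least 1.63-fold lower in Msi1 than in IgG (−1.13, or −0.99 with median centring). Aurkb, the kinase of the chromosomal passenger complex, differed by −0.11, Plk4, which copies centrioles, by 0.22 and the germ cell kinase Aurkc by 0.20. Aurka, Bub1, Bub1b, Plk2 and Plk3 were below the floor on both arrays.

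The anaphase-promoting complex genes ranged from 0.80 for Cdc27 and 0.35 for Cdc16 to −0.25 for Cdc23, with Cdc26 at 0.31. Its activator Cdc20 differed by −0.21. Cdc34, a ubiquitin-conjugating enzyme, read 6.80 in Msi1, 6.69 in hnRNP, 7.78 in IgG and 7.32 in input. Its difference of −0.98 lay just inside 2-fold and was −1.54 with quantile normalization. Cdc20b, a relative of Cdc20, was at least 1.62-fold lower (−1.02).

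The other cyclin-dependent kinases and the genes that share only a symbol start held 3 genes above IgG. Cdk8, a kinase of the Mediator complex, read 6.49 in Msi1, 4.66 in hnRNP, 5.29 in IgG and 8.44 in input, and was 2.29-fold higher, with the IgG value just above its floor. With loess centring it fell short of 2-fold (0.84). Cdc73, a subunit of the Paf1 transcription complex, was at least 1.59-fold higher (1.35) and Cdc37l1, a relative of the Hsp90 cochaperone Cdc37, at least 1.08-fold (1.05). Cdk13, which acts on RNA polymerase, differed by 0.85, Cdk9 by −0.57, Cdk10 by −0.54, and the splicing factor Cdc40 by −0.71. With each value below a floor raised to that floor, 5 of the 9 genes called higher stayed past 2-fold, namely Pcna, Ccnd2, Top2a, Ccna2 and Cdk8, and 0 of the 2 called lower.

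**Figure D2:**
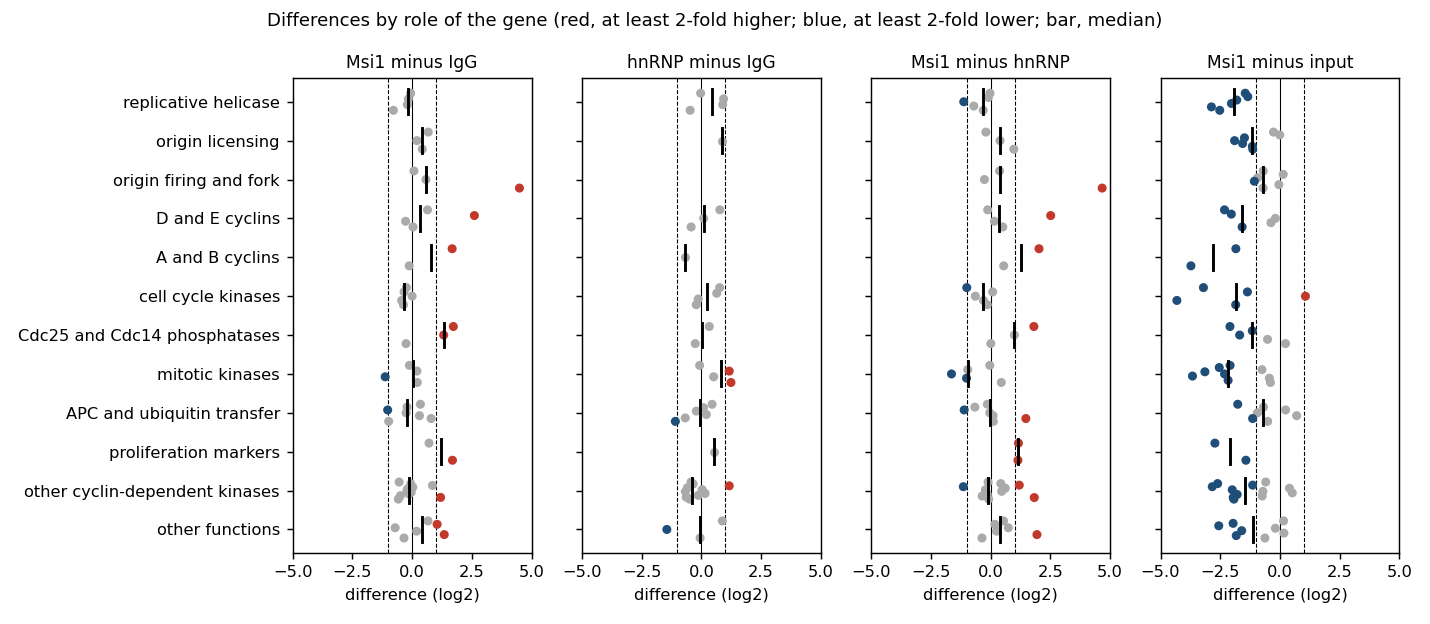
Differences in log2 signal for 4 pairs of arrays by role of the gene, with 1 point per gene above the floor on either array of the pair, red where at least 2-fold higher, blue where at least 2-fold lower, and a bar at the median. Most points lie between −1 and 1 in the 3 panels without input, and the panel of Msi1 minus input lies mainly to the left of 0.

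The difference between Msi1 and IgG was also read by range of input signal, which depends on the probes as well as on the RNA. Over all genes the median difference was −0.17 from the floor to 6, 0.40 from 6 to 8 and 0.99 at 8 or more, and over cell cycle genes it was 0.04, −0.06 and 0.71, with no rise between the first 2 ranges. Of 9 cell cycle genes with an input signal of 8 or more, 4 exceeded IgG by 2-fold or more in Msi1 (Pcna, Ccnd2, Ccna2 and Cdk8). Over all genes in that range the share was 49.5% (661 of 1336). Between 6 and 8 on input, 4 of 31 cell cycle genes were higher (12.9%), against 27.4% of all genes. From the floor to 6, 1 of 13 was higher (7.69%), against 6.58%. These ranges were set after the data were seen and the shares were not tested. Across the 78 genes, Pearson's r between the Msi1 and input signals was 0.69, with a Spearman's rho of 0.63, and over all genes r was 0.74 and rho 0.77, as a description of values that share arrays and probe sets. For IgG and input, the 78 genes gave an r of 0.45 and a rho of 0.46.

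**Figure D3:**
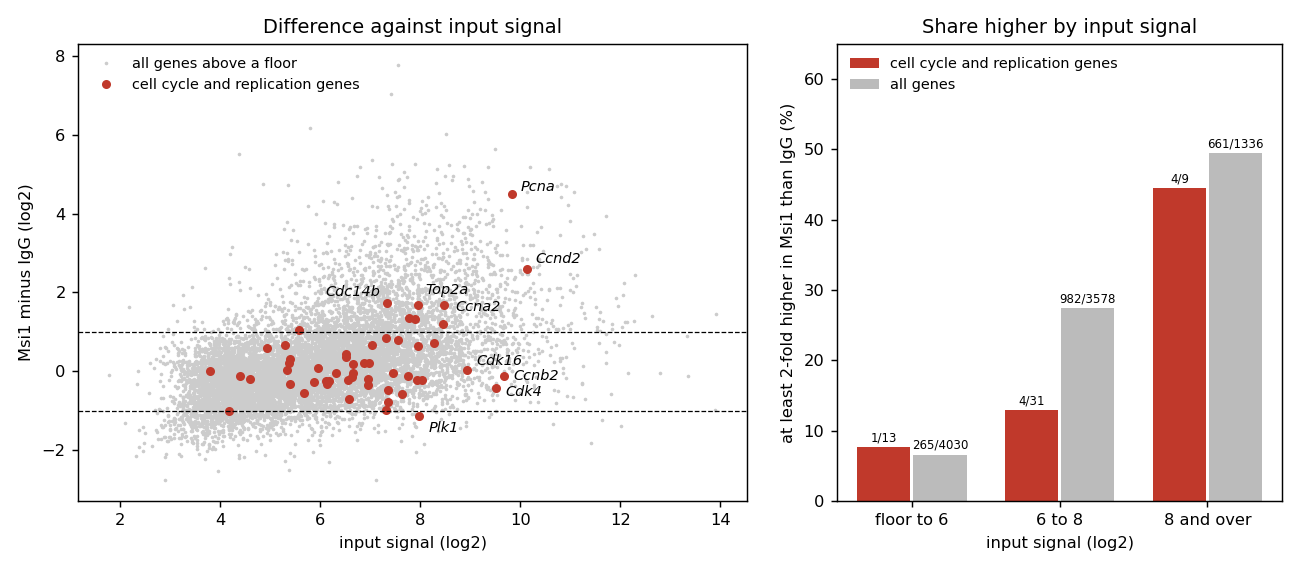
Left, the difference of Msi1 minus IgG (log2) against the input signal (log2) for genes above a floor, cell cycle and replication genes in red and all genes in grey, with dashed lines at 2-fold; right, the share of genes in which Msi1 exceeded IgG by 2-fold or more in 3 ranges of input signal, with counts above the bars. Pcna and Ccnd2 lie above 2-fold, and Cdk4, Ccnb2 and Cdk16 lie near 0.

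Some cell cycle genes with an input signal of 8 or more lay near IgG, while 4 of the 9 were at least 2-fold above it. Ccnb2 differed from IgG by −0.12 and Cdk4 by −0.44. Cdk16, a kinase of the PCTAIRE family, read 6.11 in Msi1, 5.49 in hnRNP, 6.08 in IgG and 8.94 in input, a difference from IgG of 0.03. Pcna stayed more than 2-fold above IgG with median centring (4.63), quantile normalization (4.56) and loess centring (3.96), and Ccnb2 and Cdk4 stayed within 2-fold of IgG under all 3.

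Msi1 was then set against input, the RNA from which it was precipitated. Cell cycle genes lay below input: 45 of the 74 above a floor (60.8%) were at least 2-fold lower in Msi1, against 38.3% of all genes, and 1 (1.35%) was at least 2-fold higher, against 11.8%. The median difference was −1.39, against −0.57 over all genes. The cell cycle genes had the higher input median (6.60, against 4.56), and genes of like input signal were not compared here. Epithelium markers were lower in 9 of 9 genes (median −2.68) and enterocyte markers in 10 of 10 (median −3.09). Among crypt stem cell markers 2 of 7 were lower, among immune cell markers 4 of 8, and among stroma and muscle markers 0 of 6. Of those 6, 3 were at least 2-fold higher than input (Acta2, Col1a1 and Des), with a list median of 0.90. In each of the other marker lists 0 were higher. The arrays' distributions differ most in this pair, and the number lower was 23 of 74 with quantile normalization and 32 of 73 with loess centring. Over all genes, the share lower fell too, to 18.9% with quantile normalization and 27.6% with loess centring. The one gene higher, Cdk3, read 4.85 in Msi1 and 3.79 in input, at least 1.70-fold, and was under 2-fold with each of the 3 scalings.

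All 6 helicase subunit genes were at least 2-fold lower in Msi1 than in input, from Mcm2 (5.20 in Msi1 and 6.66 in input) and Mcm3 (4.55 and 5.90) to Mcm7 (4.82 and 7.35) and Mcm6 (4.53 and 7.40). Their median was −1.92, and 4 of the 6 stayed past 2-fold with quantile normalization and 5 with loess centring. Cdk4 had the largest difference of the 78 genes, at 19.9-fold lower in Msi1 (−4.32), followed by Ccnb2 at 13.2-fold (−3.73), Plk1 at least 9.49-fold (−3.66), Cdk1 at 9.22-fold (−3.20) and Bub1, a spindle checkpoint kinase, at least 5.08-fold (−3.14). All 5 genes were still at least 2-fold lower with each of the 3 scalings, with Cdk4 at −2.89 and Ccnb2 at −2.22 with quantile normalization. Of the 9 mitotic kinase genes, 6 were lower, as they were in number with quantile normalization and loess centring.

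Pcna was within 2-fold of input, at −0.71, and this value was above 0 with quantile normalization (0.56) and loess centring (0.51). Among the 9 cell cycle genes called above IgG, 0 were at least 2-fold higher than input, 2 (Pcna and Cdc37l1) were within 2-fold of it and 7 were lower. Over all genes, 157 of the 1927 higher than IgG were also higher than input, 872 were within 2-fold and 898 were lower. Ccnd2 was 4.11-fold lower in Msi1 than in input (−2.04) as deposited, and less than 2-fold lower with quantile normalization (−0.73).

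The hnRNP precipitate was compared with the same IgG array, so this comparison and that of Msi1 share their control. Of 39 cell cycle genes above a floor, 3 (7.69%) were at least 2-fold higher in hnRNP, against 6.26% of all genes, and 2 (5.13%) lower, against 4.51%. The median was −0.03, against 0.08 over all genes. With quantile normalization 9 genes were higher and 2 lower, so the share of calls that were higher was 81.8% in place of 60%. With loess centring 2 were higher and 2 lower. Over all genes, the share higher also rose with quantile normalization, to 12.8%, and the share lower to 10.6%. With loess centring these shares were 4.75% and 5.20%.

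Aurkc read 6.13 in Msi1, 7.09 in hnRNP, 5.92 in IgG and 6.88 in input, and was 2.24-fold higher in hnRNP than in IgG on the probe set used. Its other 3 probe sets differed by 0.72, 0.53 and −0.04. Plk3, a stress-responsive kinase, was at least 1.16-fold higher (5.48 in hnRNP and 4.24 in IgG) and Cdk14 at least 1.03-fold (5.22 and 4.05), and both fall under 2-fold once the IgG value is raised to its floor. Mcm5 (0.93), Mcm6 (0.89), Cdc6 (0.88) and Cdk1 (0.77) lay below 2-fold, and with quantile normalization all 4 passed it (1.27, 1.22, 1.20 and 1.08). Their IgG values lay below the floor, so as deposited they were at least 1.71-fold, 1.02-fold, 1.03-fold and 1.39-fold higher. Cdc34 was 2.13-fold lower (−1.09) and Cdc40 at least 1.43-fold (−1.45), and Ccnb2 (−0.67) and Cdk18 (−0.67) were within 2-fold. Pcna was below the floor on both arrays.

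Set directly against hnRNP, the Msi1 precipitate had 10 of 57 cell cycle genes at least 2-fold higher (17.5%, against 17.5% of all genes) and 6 at least 2-fold lower (10.5%, against 7.79%). The median was 0.00, against −0.02 over all genes. Of all calls 62.5% were higher, and with median centring 80.0%, with 12 higher and 3 lower. Over all genes, 19.9% were higher and 5.06% lower with median centring, so higher calls outnumbered lower ones there too. Pcna was at least 15.5-fold higher, Ccnd2 5.70-fold, Ccna2 at least 2.76-fold, Cdk8 at least 2.50-fold, Cdc27, a subunit of the anaphase-promoting complex, at least 2.37-fold, and Top2a 2.21-fold. Cdc14b (at least 2.01-fold), Cdk13 (at least 2.02-fold), Cdc73 (at least 1.71-fold) and Mki67 (at least 1.30-fold) were the others. All but Cdc25a and Cdc37l1 of the 9 genes called above IgG passed 2-fold over hnRNP too. Over all genes, 1451 of the 1927 called above IgG did so, so this overlap was common.

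The 6 genes lower in Msi1 than in hnRNP were Plk1, Cdk14, Mcm5, Cdc20b, Plk3 and Cdk1. Plk1 was at least 2.33-fold lower (−1.64), Mcm5 2.18-fold (4.91 in Msi1 and 6.04 in hnRNP) and Cdk1 2.00-fold, with its Msi1 value at the floor. Cdk14 (−1.14), Cdc20b (−1.11) and Plk3 (−1.01) were at least 1.40-fold, 1.72-fold and 1.67-fold lower. With median centring Cdk1, Cdc20b and Plk3 were within 2-fold (−0.88, −0.99 and −0.89).

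Several probe sets were present for 7 of the 78 genes. For Pcna both were far above IgG, and for Top2a 1 of 2 was. Cdc5l, a core splicing factor despite its symbol, had 4 probe sets that gave different orders of the arrays. The probe set used read 6.82 in Msi1, 6.57 in hnRNP, 6.62 in IgG and 6.65 in input, and the others differed from IgG by 1.80, 1.28 and −0.47. Cdk7, the Cdk-activating kinase, differed by 1.20 and −0.22 with both probe sets below the floor in Msi1 and IgG, Cdk12 by −0.06 and 0.90, and Cdk10 by −0.54 and −0.73.

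**Figure D4:**
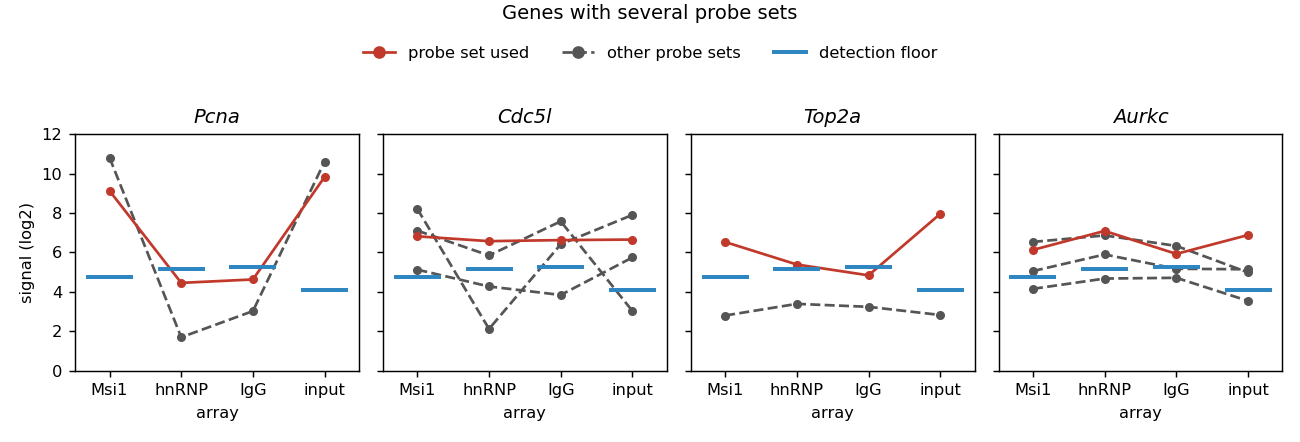
Log2 signal on the Msi1, hnRNP, IgG and input arrays for each probe set of Pcna, Cdc5l, Top2a and Aurkc, with the probe set used in solid red, the others dashed, and each array's detection floor as a blue bar. Both lines of Pcna are high for Msi1 and input and below the floor for hnRNP and IgG, those of Cdc5l cross, and the second line of Top2a stays below every floor.

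Partners of these genes in the same pathways were described from 9 lists of other symbols, of which 154 of 158 symbols were found. Together 96 of these genes were above a floor on Msi1 or IgG, of which 28 (29.2%) exceeded IgG by 2-fold or more in Msi1 and 3 (3.12%) were lower, against the same 18.6% and 6.91% of all genes. The lists had median input signals from 4.46 to 6.92. Over all genes, the share higher was 6.58% from the input floor to 6 and 27.4% from 6 to 8. Genes of like input signal were not compared here. Some called genes fall under 2-fold once the IgG value is raised to its floor, such as Pold3, Cenpe and Rbl1 (at least 1.05-fold, 1.10-fold and 1.14-fold). Among the called genes named below, those beyond the 2 highest and the lowest of a list were chosen after their values were seen.

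Cohesin and condensin genes, whose rings hold and compact chromosomes, had 6 of 11 genes past 2-fold above IgG in Msi1 and 0 lower, with a median of 1.34. Of the 6, Smc3 (at least 1.28-fold) and Stag2 (at least 1.21-fold) fall under 2-fold once the IgG value is raised to its floor. The list's median input signal was 6.85, and between 6 and 8 on input 27.4% of all genes were higher. Nipbl, the cohesin loader, read 7.03 in Msi1, 4.30 in hnRNP, 3.97 in IgG and 7.32 in input, at least 3.39-fold above IgG. The condensin core gene Smc4 read 6.70 in Msi1, 4.13 in hnRNP, 4.04 in IgG and 7.40 in input, at least 2.71-fold. Both were bright in Msi1 and input and below the floor in hnRNP and IgG. Smc1a, a core subunit of cohesin, was lowest at −0.12.

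E2F and Rb genes had 3 of 10 higher and 1 lower. The tumour suppressor Rb1 read 6.34 in Msi1, 3.37 in hnRNP, 3.94 in IgG and 8.23 in input (at least 2.11-fold above IgG), Rbl1, its relative, was at least 1.14-fold higher (1.37) and E2f3 at least 1.20-fold (1.32). E2f1, the founding E2F activator, was at least 1.78-fold lower (−1.29). DNA polymerase and fork genes had 5 of 17 higher and 2 lower. The polymerase epsilon subunit Pole4 was at least 2.02-fold higher, the flap nuclease Fen1 at least 1.34-fold, the single-strand binding subunit Rpa3 2.59-fold, Pold3 at least 1.05-fold and Top1 at least 1.28-fold, and the helicase cofactors Gins2 and Gins3 were 2.87-fold and at least 2.10-fold lower.

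Spindle, kinetochore and cytokinesis genes had 4 of 18 higher and 0 lower, led by Spc25 (at least 2.75-fold) and Mad2l1 (at least 1.99-fold), which act at kinetochores, with Cenpe (1.16) and Racgap1 (1.12), and Spc24, the partner of Spc25, lowest at −0.96. Ubiquitin ligase genes had 3 of 12 higher, namely Anapc10 (at least 1.87-fold), Cks2 (at least 2.29-fold) and Rbx1 (2.87-fold), and 0 lower, with Ube2c lowest at −0.87. Cks2 read 6.46 in Msi1, 6.96 in hnRNP and 4.87 in IgG, so it exceeded IgG in hnRNP too (2.09). Of pathway genes with several probe sets, such as Cks2 (3) and Rbx1 (2), only the brightest was read. Checkpoint genes had 1 of 7 higher, Mdm2 (at least 2.29-fold), and 0 lower, with Chek1 next at 0.98 and Atrip lowest at −0.60. Nucleotide supply genes had 1 of 6 higher, Dut (at least 2.01-fold), and 0 lower, with Tk1 next at 0.03 and Dctd lowest at −0.95.

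Cyclins outside the A, B, D and E families had 3 of 11 higher and 0 lower. Ccnc, the partner of Cdk8 in Mediator, exceeded IgG in Msi1 by at least 6.66-fold (3.26) and exceeded input by 1.86. Ccng1 was at least 2.66-fold and Ccnt2 at least 1.96-fold higher, and Ccnt1 was lowest at −0.43. Of the Cdk inhibitors, 2 of 4 were higher, Cdkn1b (45.8-fold) and Cdkn2b (2.68-fold), 0 were lower, and Cdkn2a was lowest at −0.25. Cdkn1b, of whose 2 probe sets the brightest was read, gave 10.90 in Msi1, 5.44 in hnRNP, 5.38 in IgG and 4.37 in input.

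Markers of the cells in which these genes act were read beside them. Of the crypt stem cell markers, 1 of 6 above a floor passed 2-fold over IgG in Msi1, Olfm4 (8.01 in Msi1, 4.96 in hnRNP, 5.21 in IgG and 10.37 in input), and 0 were lower, with a median of 0.00. Enterocyte markers had 8 of 10 higher with a median of 1.53, and epithelium markers 4 of 9 with a median of 0.74. The share over all genes was 18.6%, and 49.5% among those with an input signal of 8 or more. These 2 marker lists had median input signals of 11.27 and 9.60. All their genes were at least 2-fold lower in Msi1 than in input. Against IgG, immune cell markers had 0 of 3 higher and 1 lower, and stroma and muscle markers 0 of 6 higher or lower. The part of these cell types in the values of cell cycle genes was not tested.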

How the data were processed

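RNA of 4 arrays was analysed, 1 each for Msi1, hnRNP, IgG and input, grouped by the antibody in the labels. The log2 values were used as deposited by the authors. The tool affy is named, without a version, in the submitters' processing notes, and how background was corrected, how arrays were normalized and which log base was used were not given in the sources used here, so base 2 was inferred from the range. Of 34760 probe sets, 21640 had 1 gene symbol in the platform annotation, 1321 had several and 11799 none here. A gene with several probe sets was represented by the brightest, by its mean of 4 arrays. Entrez identifiers gave the same RefSeq symbol for all 89 probe sets of the cell cycle genes.

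Differences of log2 values were taken where a gene exceeded the floor on 1 or both arrays of a pair and called at 2-fold over the whole table. Where the dimmer value lay below its floor, the fold is a lower bound against the floor. With 1 array a group no p-value was computed. Signal over the floor takes the place of depth here, and the number of arrays limits the precision.

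Any gene could be named within its role. Values were given by rule for the 15 largest and 8 smallest differences of Msi1 minus IgG, the 6 largest and 4 smallest elsewhere, the 3 highest and 2 lowest of each role, 9 known regulators and, of each pathway list, the 2 highest and the lowest. The genes, lists and rules were chosen with earlier results of these data known. The steps were tested on simulated data. Alternative scalings used medians, quantile normalization or loess (span 0.4), beside other floors or none, folds of 1.5 and 3, and other choices of probe set and members. Python 3.11.15 was used with numpy 2.4.6 and pandas 2.3.3 for tables, statsmodels 0.14.6 for loess, scipy 1.17.1 for intervals of the median and matplotlib 3.10.9 for plots.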

Additional observations from a re-analysis of the deposited data

Results flagged for a closer look

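Signal above the IgG control appeared in 3 probe sets that the comparisons do not use, among 13 such probe sets, counting 2 that carry Top2a together with Hibadh. The second Pcna probe set exceeded IgG by 7.78 log2 units. Of the unused Cdc5l probe sets, 1 exceeded IgG by 1.80 (8.21 in Msi1, 2.12 in hnRNP, 6.41 in IgG and 7.90 in input) and another by 1.28 (5.13 in Msi1, 4.27 in hnRNP, 3.84 in IgG and 5.74 in input).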

How the results depend on the processing

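Of the 54 genes above a floor on Msi1 or IgG, all kept their call for Msi1 minus IgG under the 3 scalings and 2 other choices of probe set except Cdc20b, Cdc34, Cdc5l, Cdk8, Mcm7, Plk1 and Top2a, and none of those called changed sign. Against IgG, the 9 genes higher in Msi1 became 2 with detection on both arrays, 15 at 1.5-fold and 5 at 3-fold, and the 2 lower became 4 with quantile normalization, 5 at 1.5-fold, and 0 with median centring, a floor at the 99th percentile, detection on both arrays or 3-fold. The median of −0.02 was 0.31 with the floor at the 99th percentile and −0.21 with detection on both arrays. Against input, the 1 gene higher became 2 with quantile normalization, loess centring (Cdk3 in neither) or 1.5-fold and 0 with median centring, the higher floor, detection on both arrays or 3-fold. The 45 lower became 23 with quantile normalization, and the median of −1.39 was −0.51 with it and −0.78 with loess centring. For hnRNP against IgG, the 3 higher became 9 with quantile normalization, 10 at 1.5-fold, 1 with the higher floor or detection on both arrays and 0 at 3-fold. The 2 lower became 6 at 1.5-fold, 0 at 3-fold, and 1 with the higher floor, detection on both arrays or without genes that only share a symbol start. For Msi1 against hnRNP, the 10 higher became 2 with detection on both arrays and 6 at 3-fold. The 6 lower became 10 at 1.5-fold, 3 with median centring, 2 with the higher floor or detection on both arrays, and 1 at 3-fold, and the median of 0.00 was 0.46 with the higher floor. The other alternatives stayed within 1.5 times of each count and inside the 95% order-statistic interval of each median, so 85 values stayed and 39 moved. Folds and floors change what is counted, and the cause of shifts with scaling was not tested. The shares called over all genes also changed with scaling, floor and fold. The median of all genes moved by 0.13 (Msi1 minus IgG), −0.25 (Msi1 minus input) and 0.12 (Msi1 minus hnRNP) with median centring, and Msi1 minus input by 0.45 with quantile normalization and 0.33 with loess centring. No paired analysis was possible because each group had 1 array.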

Other observations

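Probe sets that carry Top2a together with Hibadh were 2 in number and were below the floor on all 4 arrays.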
